A study of Mus musculus with 8 samples.

Results

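The genes described here are 10 parts of the Toll-like receptor system of the mouse: the receptors Tlr2, Tlr3, Tlr4, Tlr7, Tlr9 and Tlr13, the co-receptor Cd14, the receptor-like pair Cd180 and Ly86, and the adaptor Myd88. They were chosen by name from a list of symbols drawn up with earlier results of these data known. The shares of all genes given below are therefore a description and not an independent test of this list. All 10 were found among the 23393 gene symbols of the count files, and all 10 were among the 17415 genes with enough counts to be tested. The libraries came from prefrontal cortex of C57BL6/J mice aged 6 to 8 weeks, as whole-tissue lysates, 2 libraries per group and 8 in all. The shAdnp group had received an adeno-associated virus (AAV9) whose sample titles name Adnp, and its reference was a GFP virus group of the same set, called GFP (Adnp set) here. The shPogz group had received a virus whose titles name Pogz, against a separate GFP group, called GFP (Pogz set). All 4 groups therefore carried an AAV9 virus, and an uninjected group is not part of these data. The treatment label of both hairpin groups names ASH1L and not Adnp or Pogz, so the groups follow the titles. The promoter that drives each virus is not given in the sources used here.

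Toll-like receptors are membrane proteins that recognise molecules of microbes and of damaged cells. Tlr2 and Tlr4 act at the cell surface, while Tlr3, Tlr7, Tlr9 and Tlr13 read nucleic acids inside endosomes. Ligand binding brings receptor tails together, and the adaptor Myd88 (or Ticam1 for Tlr3) then starts kinase cascades that end in NF-kB and interferon regulatory factors. In the brain most of these receptors are known mainly from microglia, the resident macrophages, with Tlr3 also described in astrocytes and neurons. Because the samples are whole tissue, more cells of a type and more RNA per cell cannot be told apart here.

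The libraries held from 27501722 to 69002749 counts. Neuronal markers were abundant in every library (10 markers summing to between 7637 and 11596 CPM, none at 0), as the tissue label requires. Levels are given as CPM, which is a gene's counts scaled to the TMM-normalised size of its library. Adnp stood at 87.2 and 118 CPM in shAdnp, against 137 and 111 CPM in GFP (Adnp set). Pogz stood at 49.0 and 37.3 CPM in shPogz, against 54.4 and 53.1 CPM in GFP (Pogz set). Neither targeted transcript passed the test over all genes (edgeR adjusted p = 0.768 for Adnp and 0.667 for Pogz), and the groups are called by their titles throughout. The ribosomal RNA precursor Rn45s took 7.62% of counts in shAdnp replicate 1 and at most 0.740% in the other libraries. Replicate 2 of shPogz stood apart from the other 7 libraries in the genes described here: it had the highest CPM of all libraries for 9 of the 10, Cd14 being the exception. It also had the lowest sum of neuronal markers (7637 CPM, next 9374) and of 10 astrocyte markers (3887 CPM, next 4839). Replicate 2 of shPogz thus differed in neuronal and astrocyte markers too. Its sum of 8 oligodendrocyte markers was the highest (4354 CPM) but close to the next (4135 CPM, shAdnp replicate 1). That sum also varied within the Adnp set, at 4135 and 2012 CPM in shAdnp and 2556 and 3815 CPM in GFP (Adnp set).

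In shAdnp all 10 genes lay above their GFP controls in both libraries, with log2 fold changes between 0.35 (Tlr3) and 2.32 (Tlr2) and a median of 1.32. In shPogz all 10 fitted values were also above 0, from 0.048 (Cd14) to 2.0 (Cd180), with a median of 0.64, and 6 of the 10 had both hairpin libraries above both GFP libraries. Over all 17415 genes the median was -0.012 in shAdnp and -0.022 in shPogz, with 47.7% and 46.4% of genes above 0. The share of genes whose hairpin libraries lay wholly above was 20.4% in shAdnp and 19% in shPogz. At an adjusted p of 0.05 the quasi-likelihood test of edgeR called 0 of 17415 genes in either set, and so none of the 10. At an unadjusted p under 0.05 in the upward direction, 9 of the 10 were found in shAdnp (all but Tlr3), against 6.67% of all genes (8.36% in either direction, 1.69% downward), and 5 of the 10 in shPogz (Tlr2, Tlr7, Ly86, Cd180 and Myd88), against 4.05% (6.7% in either direction). DESeq2, run on the same counts, called 6 of the 10 in shAdnp at an adjusted p under 0.05 (Tlr2, Tlr4, Tlr13, Cd14, Ly86 and Cd180), where it called 2.41% of all genes. In shPogz it called 1 of the 10, Cd180, where it called 0.574% of all genes.

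**Figure D1:**
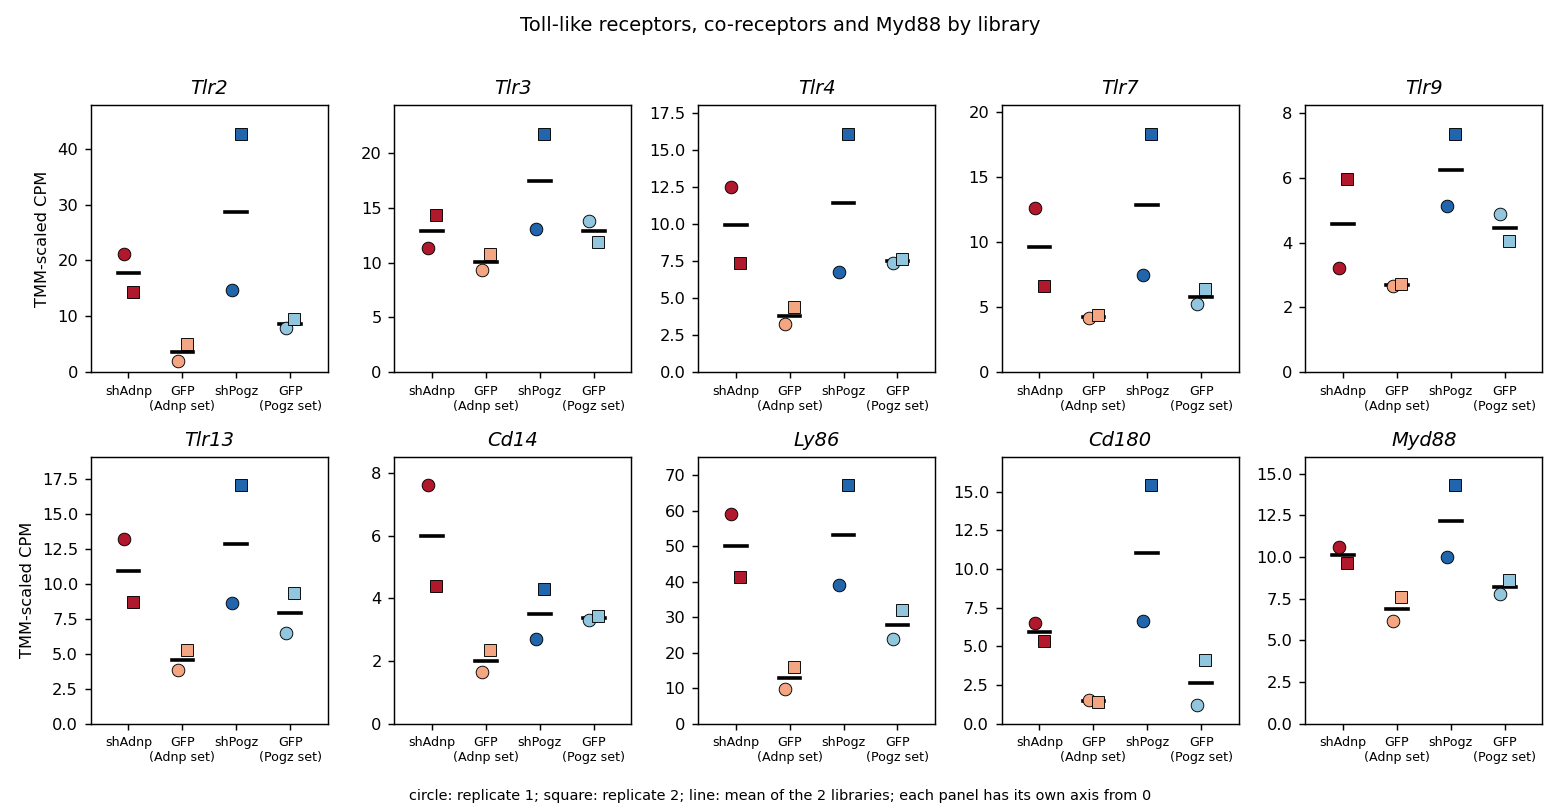
TMM-scaled CPM (y axis, from 0 in each panel) of the 10 genes in the 8 libraries, by group (x axis). Circles are replicate 1, squares replicate 2 and lines the mean of the 2 libraries. In shAdnp both libraries lie above both GFP libraries for every gene, with Tlr2 at 21.1 and 14.4 CPM in shAdnp against 2.06 and 5.03 CPM in GFP (Adnp set), while in shPogz replicate 2 is far above replicate 1 for most genes.

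The start regions of Tlr2, Tlr3, Myd88 and Ly86 are shown because the first 3 hold a match to a motif of the factors that this pathway activates and differ widely in fold change, and Ly86, with the highest level per length, holds none. Each line gives the 250 bases before the RefSeq start, 5′ to 3′ on the gene's own strand (GRCm38.p6), with matched motifs in capitals. The gene intervals given below for these genes are from GENCODE and begin before these RefSeq starts. By those intervals the Tlr3 and Myd88 regions lie wholly inside the gene, and the Tlr2 and Ly86 regions partly. Distances are counted from the RefSeq start only.
Tlr2 (chr3:83841609-83841858, minus strand): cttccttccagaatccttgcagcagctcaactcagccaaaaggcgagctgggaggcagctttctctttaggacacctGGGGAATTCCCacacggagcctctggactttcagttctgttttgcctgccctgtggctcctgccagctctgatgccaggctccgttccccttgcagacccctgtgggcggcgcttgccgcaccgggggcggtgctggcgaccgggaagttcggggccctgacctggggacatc
Tlr3 (chr8:45410381-45410630, minus strand): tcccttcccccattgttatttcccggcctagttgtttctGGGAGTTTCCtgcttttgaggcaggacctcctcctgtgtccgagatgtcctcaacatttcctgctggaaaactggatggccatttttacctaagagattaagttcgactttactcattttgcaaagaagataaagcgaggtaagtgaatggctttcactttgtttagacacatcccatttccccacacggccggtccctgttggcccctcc
Myd88 (chr9:119340019-119340268, minus strand): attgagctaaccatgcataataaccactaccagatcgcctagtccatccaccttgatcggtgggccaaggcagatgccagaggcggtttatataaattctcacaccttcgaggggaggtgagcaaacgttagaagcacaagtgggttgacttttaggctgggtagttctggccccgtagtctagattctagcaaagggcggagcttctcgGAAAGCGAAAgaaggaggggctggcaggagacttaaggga
Ly86 (chr13:37345095-37345344, plus strand): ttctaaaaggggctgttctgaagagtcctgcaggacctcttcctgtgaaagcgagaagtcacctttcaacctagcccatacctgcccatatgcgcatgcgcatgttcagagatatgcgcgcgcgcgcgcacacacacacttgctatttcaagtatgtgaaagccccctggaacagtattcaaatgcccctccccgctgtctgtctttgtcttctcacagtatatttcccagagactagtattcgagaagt
The motifs searched on both strands were the kappaB site of NF-kB, the interferon-stimulated response element (GAAA, any 2 bases, GAAA) and the PU.1 core AGGAAGT. The capitals in Tlr2 mark 2 overlapping kappaB matches, from 173 to 163 bases before the start, and those in Tlr3 a kappaB match from 211 to 202 bases before it. The capitals in Myd88 mark a response element from 40 to 31 bases before the start. Among the start regions of 7 of the 10 genes in the RefSeq table (Tlr2, Tlr3, Tlr9, Tlr13, Ly86, Cd180 and Myd88), no other match was found, and Tlr4, Tlr7 and Cd14 are not analysed here. Of all 32851 start regions, 3.9% held the kappaB site, 2.98% the response element and 7.69% the PU.1 core. A kappaB match was thus present in the genes with the largest and the smallest log2 fold change in shAdnp, 2.32 for Tlr2 and 0.35 for Tlr3.

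Tlr2, the surface receptor for bacterial lipoproteins (chromosome 3, 83836272 to 83841767, minus strand, GRCm38), had the largest log2 fold change of the 10 in shAdnp. Its level was 21.1 and 14.4 CPM in shAdnp, against 2.06 and 5.03 CPM in GFP (Adnp set). It was 14.7 and 42.7 CPM in shPogz, against 7.82 and 9.44 CPM in GFP (Pogz set). The groups did not overlap in either set, with shPogz replicate 2 far above every other library. For Tlr2 the shAdnp response on the log2 scale was 2.32 (SE 0.67; adjusted p = 0.420, edgeR) and the shPogz response 1.73 (SE 0.65; adjusted p = 0.667, edgeR). In shPogz the value was 0.76 without replicate 2 and 2.34 without replicate 1.

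Tlr4, the endotoxin receptor (chromosome 4, 66827584 to 66930284, plus strand), stood at 12.5 and 7.36 CPM in shAdnp, against 3.24 and 4.38 CPM in GFP (Adnp set). It stood at 6.74 and 16.1 CPM in shPogz, against 7.36 and 7.63 CPM in GFP (Pogz set). The Adnp set did not overlap, whereas shPogz replicate 1 lay below both of its controls. For Tlr4 the shAdnp response on the log2 scale was 1.38 (SE 0.43; adjusted p = 0.404, edgeR) and the shPogz response 0.60 (SE 0.42; adjusted p = 0.701, edgeR), where it turned to -0.15 without shPogz replicate 2.

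Cd14, which hands endotoxin to Tlr4 (chromosome 18, 36725067 to 36726798, minus strand), was at 7.61 and 4.39 CPM in shAdnp, against 1.63 and 2.36 CPM in GFP (Adnp set). In shPogz it was at 2.71 and 4.30 CPM, against 3.32 and 3.44 CPM in GFP (Pogz set), so that the controls lay between the hairpin libraries. For Cd14 the shAdnp response on the log2 scale was 1.59 (SE 0.34; adjusted p = 0.295, edgeR) and the shPogz response 0.048 (SE 0.34; adjusted p = 0.971, edgeR), where it was -0.32 without replicate 2. Of the 10 genes, Cd14 alone had an unadjusted p under 0.05 for the difference between the responses (shPogz minus shAdnp, -1.54, SE 0.48, unadjusted p = 0.00996; edgeR adjusted p = 0.978). In that test 2.41% of all genes had such a p with a negative difference. Ly96, the subunit with which Tlr4 binds endotoxin, stood at 1.10 and 0.594 CPM in shAdnp, against 0.589 and 0.700 CPM in GFP (Adnp set), and overlapped.

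Ly86 encodes a small secreted partner of Cd180 (chromosome 13, 37345208 to 37419036, plus strand). It was at 59.1 and 41.2 CPM in shAdnp, against 9.84 and 16.1 CPM in GFP (Adnp set). It was at 39.0 and 67.1 CPM in shPogz, against 23.7 and 31.9 CPM in GFP (Pogz set). Neither set overlapped. For Ly86 the shAdnp response on the log2 scale was 1.95 (SE 0.37; adjusted p = 0.295, edgeR) and the shPogz response 0.93 (SE 0.36; adjusted p = 0.667, edgeR), and the shPogz value was 0.48 without replicate 2.

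Cd180 encodes a relative of Tlr4 that has leucine-rich repeats outside the cell but lacks the signalling tail of the receptors (chromosome 13, 102693558 to 102739629, plus strand). It was at 6.52 and 5.36 CPM in shAdnp, against 1.504 and 1.38 CPM in GFP (Adnp set). It was at 6.64 and 15.4 CPM in shPogz, against 1.17 and 4.11 CPM in GFP (Pogz set). Both sets were without overlap, although the GFP libraries of the Pogz set differed from each other more than those of the Adnp set. For Cd180 the shAdnp response on the log2 scale was 2.04 (SE 0.61; adjusted p = 0.400, edgeR) and the shPogz response 2.0 (SE 0.60; adjusted p = 0.667, edgeR). Leaving out shPogz replicate 2 gave 1.28 in shPogz, against 3.28 without GFP (Pogz set) replicate 2 and 1.45 without GFP (Pogz set) replicate 1.

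Tlr7, the endosomal receptor for single-stranded RNA (chromosome X, 167304929 to 167330558, minus strand), was at 12.6 and 6.59 CPM in shAdnp, against 4.15 and 4.36 CPM in GFP (Adnp set). It was at 7.44 and 18.3 CPM in shPogz, against 5.23 and 6.35 CPM in GFP (Pogz set). The groups did not overlap in either set. For Tlr7 the shAdnp response on the log2 scale was 1.17 (SE 0.46; adjusted p = 0.552, edgeR) and the shPogz response 1.14 (SE 0.46; adjusted p = 0.667, edgeR). Without shAdnp replicate 1 the first was 0.64, and without shPogz replicate 2 the second was 0.35.

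Tlr13, which in mice recognises bacterial ribosomal RNA (chromosome X, 106143204 to 106160493, plus strand), was at 13.2 and 8.71 CPM in shAdnp, against 3.83 and 5.28 CPM in GFP (Adnp set). It was at 8.61 and 17.0 CPM in shPogz, against 6.47 and 9.34 CPM in GFP (Pogz set), where shPogz replicate 1 lay between the controls. For Tlr13 the shAdnp response on the log2 scale was 1.26 (SE 0.37; adjusted p = 0.379, edgeR) and the shPogz response 0.69 (SE 0.37; adjusted p = 0.667, edgeR), with 0.11 in shPogz once replicate 2 was left out.

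Tlr9, the endosomal receptor for unmethylated CpG DNA (chromosome 9, 106222598 to 106226883, plus strand), was the member with the lowest level per length in both hairpin groups. It was at 3.20 and 5.98 CPM in shAdnp, against 2.65 and 2.71 CPM in GFP (Adnp set). It was at 5.12 and 7.36 CPM in shPogz, against 4.88 and 4.04 CPM in GFP (Pogz set). Neither set overlapped, with shAdnp replicate 1 and shPogz replicate 1 close to their controls. For Tlr9 the shAdnp response on the log2 scale was 0.78 (SE 0.31; adjusted p = 0.532, edgeR) and the shPogz response 0.49 (SE 0.31; adjusted p = 0.689, edgeR). In shAdnp it was 0.27 without replicate 2 and 1.17 without replicate 1, so that here replicate 2 was the higher library, whereas replicate 1 was higher for Tlr2, Tlr4, Tlr7, Tlr13, Cd14, Ly86, Cd180 and Myd88.

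Tlr3, the receptor for double-stranded RNA (chromosome 8, 45395665 to 45411080, minus strand), had the smallest log2 fold change of the 10 in shAdnp. It was at 11.3 and 14.4 CPM in shAdnp, against 9.30 and 10.8 CPM in GFP (Adnp set). It was at 13.1 and 21.8 CPM in shPogz, against 13.8 and 11.9 CPM in GFP (Pogz set). The Adnp set did not overlap and the Pogz set did. For Tlr3 the shAdnp response on the log2 scale was 0.35 (SE 0.24; adjusted p = 0.761, edgeR) and the shPogz response 0.44 (SE 0.24; adjusted p = 0.667, edgeR), where it was 0.030 without replicate 2. An antisense transcript, Gm45542, overlaps Tlr3 exons in the annotation, and the strand setting of the counting is not given in the sources used here, so reads of the 2 cannot be told apart.

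Myd88, the adaptor shared by all of these receptors except Tlr3 (chromosome 9, 119335934 to 119341411, minus strand), had smaller log2 fold changes than most of the receptors. It was at 10.6 and 9.61 CPM in shAdnp, against 6.15 and 7.58 CPM in GFP (Adnp set). It was at 9.99 and 14.3 CPM in shPogz, against 7.78 and 8.64 CPM in GFP (Pogz set). Neither set overlapped. For Myd88 the shAdnp response on the log2 scale was 0.56 (SE 0.20; adjusted p = 0.450, edgeR) and the shPogz response 0.56 (SE 0.20; adjusted p = 0.667, edgeR). Without shPogz replicate 2 the shPogz value of Myd88 was 0.28, and without shPogz replicate 1 it was 0.84. The gene Acaa1a overlaps Myd88 exons on the other strand, which leaves the same doubt about strand.

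**Figure D2:**
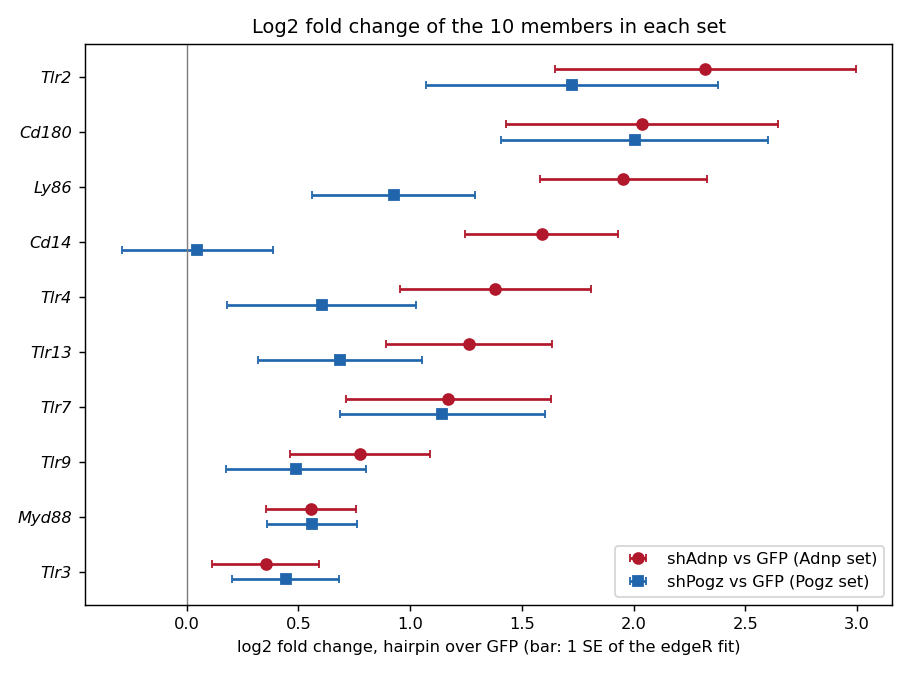
Log2 fold change of hairpin over GFP (x axis) for the 10 genes (y axis), with bars of 1 SE of the edgeR fit, for shAdnp against GFP of the Adnp set (circles) and shPogz against GFP of the Pogz set (squares). All 20 points lie above 0, and the sets lie furthest apart for Cd14, at 1.59 in shAdnp and 0.048 in shPogz.

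The sets were compared by the difference of the responses (shPogz minus shAdnp). The median difference over the 10 genes was -0.43, with 8 of the 10 below 0, beside a median of -0.023 over all genes, and 0 of 17415 genes passed at an adjusted p of 0.05 (612 had an unadjusted p under 0.05, or 3.51%). DESeq2 called 2 genes, or 0.0115%, and none of the 10. For Ly86 the difference was -1.03 (95% interval -2.27 to 0.22), for Tlr4 -0.78 (-2.18 to 0.63), and for Tlr2 -0.59 (-2.91 to 1.73). For Cd180 it was -0.034 (-1.96 to 1.89), for Tlr7 -0.028 (-1.54 to 1.48) and for Myd88 0.0038 (-0.64 to 0.65), intervals wide enough to hold differences in either direction. Leaving out replicate 2 of shPogz gave a median difference of -0.98, and leaving out its replicate 1 gave 0.0076, so the direction rests on which shPogz library is used.

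With both sets in a single fit with a term for set, all 10 genes had an unadjusted p under 0.05 and were higher with a hairpin, against 8.84% of all genes (12.5% in either direction, 3.62% downward), and again 0 of 17415 genes passed at an adjusted p of 0.05 by edgeR. The average log2 fold change was largest for Cd180 (2.02, SE 0.39; edgeR adjusted p = 0.142) and Tlr2 (2.02, SE 0.44; edgeR adjusted p = 0.183). It was 1.44 (SE 0.33) for Ly86, 1.16 (SE 0.29) for Tlr7, 0.99 (SE 0.31) for Tlr4, 0.97 (SE 0.26) for Tlr13, 0.83 (SE 0.35) for Cd14, 0.63 (SE 0.22) for Tlr9, 0.56 (SE 0.14) for Myd88 and 0.40 (SE 0.16) for Tlr3. Both hairpin libraries lay above both controls in both sets for 6 of the 10 (Tlr2, Tlr7, Tlr9, Ly86, Cd180 and Myd88), against 7.12% of all genes (5.31% lay wholly below in both sets). DESeq2 called 7 of the 10 in this comparison (Tlr2, Tlr4, Tlr7, Tlr13, Ly86, Cd180 and Myd88), where it called 4.08% of all genes.

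Single libraries carried much of these counts. In shAdnp the 9 genes at an unadjusted p under 0.05 became 2 without GFP (Adnp set) replicate 1, where the share of all genes with such a p in either direction was 3.32% in place of 8.36%. They became 3 without shAdnp replicate 1 (9.1% of all genes) and 6 without GFP (Adnp set) replicate 2 (8.46%), and all 10 fitted values stayed above 0 each time. In shPogz the 5 genes became 0 without shPogz replicate 2 (1.2% of all genes, in place of 6.7%), 1 without GFP (Pogz set) replicate 1 (1.82%) and 8 without shPogz replicate 1 (16.3%), so the share of all genes moved the same way in these refits. They became 2 without GFP (Pogz set) replicate 2 (8.57%) and 3 without shAdnp replicate 1 (6.49%). Without shPogz replicate 2 the median of the 10 in shPogz was 0.24 and 8 of the 10 lay above 0.

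The control groups themselves differed. In GFP (Pogz set) 9 of the 10 genes lay above GFP (Adnp set) in both libraries, Cd180 being the exception, against 21.2% of all genes (22.3% lay wholly below), a comparison added after the values were seen. The mean log2 difference (Pogz set minus Adnp set) was 1.42 for Tlr2, 1.13 for Ly86 and 0.26 for Myd88. Set and whatever else separated these control mice cannot be told apart.

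Per kilobase of transcript, Ly86 was far above the other 9 genes in every group, with a mean level of 44.2 CPM per kilobase in shAdnp, 11.4 in GFP (Adnp set), 46.8 in shPogz and 24.5 in GFP (Pogz set). Tlr2 came second in both hairpin groups (mean level of 5.88 CPM per kilobase in shAdnp and 9.52 in shPogz), but its range overlapped that of Myd88, which came next. In the controls Myd88 came second (mean level of 3.50 CPM per kilobase in GFP of the Adnp set and 4.19 in GFP of the Pogz set) and Tlr3 came next (2.28 CPM per kilobase in GFP of the Adnp set and 2.91 in GFP of the Pogz set). Cd180 had the lowest mean level in both control groups, 0.545 CPM per kilobase in the Adnp set and 0.995 in the Pogz set. Most other neighbours in the order overlapped in range, Tlr13, Tlr7 and Tlr4 among them in shAdnp and in shPogz.

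Across the 8 libraries the 10 genes varied together, with Pearson's r of their log2 CPM from 0.37 (Tlr9 with Cd14) to 0.98 (Tlr2 with Myd88) and a median of 0.85 over the 45 pairs. These points share group and library, so the values describe the libraries only. The genes most like each member by the same measure, among 14592 others with a mean of at least 1 CPM, had r of 0.96 or more. For Tlr2 they were Prkcd, Ctsh and Aif1, for Ly86 Cyfip1, Itgam and Vim, for Tlr13 Gngt2, Cyth4 and Nckap1l, and for Tlr4 Cd53, 2210016F16Rik and Vamp8. For Tlr7 they were Soat1, Cstb and Hps5, for Cd180 Mill2, Trim14 and Anxa2, and for Cd14 they included Rnase4 and Znrf2. For Myd88 they were Ifnar2, Fcgr1 and Phgdh, for Tlr3 they included Rnf31 and Uhrf1bp1, and for Tlr9 Vcl, Naaa and 1810033B17Rik. Of the 15 microglial markers, Aif1 is among those of Tlr2 and Itgam among those of Ly86, and the other 8 members have none among their 3.

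Markers of other cells were summed beside these genes, and of the immune cell lists the microglial sums were without overlap in both sets. The 15 microglial markers summed to 1405 and 1019 CPM in shAdnp, against 588 and 696 CPM in GFP (Adnp set), a log2 difference of 0.90, and to 914 and 1337 CPM in shPogz, against 840 and 865 CPM in GFP (Pogz set), a log2 difference of 0.38. None of the 15 was at 0 in any library, and their median log2 fold change was 0.82 in shAdnp and 0.31 in shPogz. All 15 lay wholly above the controls in shAdnp, against 20.4% of all genes, and 7 did in shPogz, against 19%. By edgeR 14 of the 15 had an unadjusted p under 0.05 upward in shAdnp (6.67% of all genes) and 1 in shPogz (4.05%). In the single fit of both sets 13 did (8.84% of all genes). Such counts in shAdnp were thus not particular to the 10 genes. The 9 markers of perivascular and infiltrating macrophages summed to 34.3 and 50.1 CPM in shAdnp, against 18.9 and 27.8 CPM in GFP (Adnp set), with none at 0. They summed to 53.8 and 97.6 CPM in shPogz, against 38.5 and 56.7 CPM in GFP (Pogz set), and overlapped. In shPogz 4 of the 9 had a log2 fold change below 0 (Mrc1, Cd163, Lyve1 and Pf4) and the median was 0.15, with Ly6c2 at 19.2 and 46.4 CPM in shPogz, against 10.04 and 20.04 CPM in GFP (Pogz set). The 12 lymphocyte markers summed to 12.1 and 30.0 CPM in shAdnp, against 1.83 and 12.6 CPM in GFP (Adnp set), where Cd3e, Cd3d, Cd3g and Cd2 were among those at 0 in replicate 1. They summed to 30.1 and 55.5 CPM in shPogz, against 18.0 and 33.0 CPM in GFP (Pogz set), with Klrb1c at 0 in replicate 1, and the sums overlapped in both sets. The 7 neutrophil markers summed to at most 1.87 CPM in any library, with Elane at 0 in all 8. The 10 markers of the meninges summed to 284 and 277 CPM in shAdnp, against 137 and 148 CPM in GFP (Adnp set), and to 205.1 and 239 CPM in shPogz, against 145 and 204.8 CPM in GFP (Pogz set), with none at 0. All 10 lay wholly above the controls in shAdnp, against 20.4% of all genes. In shPogz 1 did (Col1a2), against 19% of all genes. There 3 lay wholly below (Igf2, Slc6a13 and Slc22a6), against 21.3% of all genes, so the shPogz counts are not far from the background. The part of these cells in the differences of the 10 genes was not tested.

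Set against the summed microglial markers, some of the 10 genes stood out beyond the markers and others did not. Per 1000 CPM of the 15 markers, 6 of the 10 lay above the controls in both shAdnp libraries (Tlr2, Tlr4, Tlr13, Cd14, Ly86 and Cd180), against 2.22% of all genes, and 2 lay below (Tlr3 and Myd88), against 81.1%. In shPogz 5 lay above (Tlr2, Tlr7, Ly86, Cd180 and Myd88), against 5.65% of all genes, and 1 lay below (Cd14), against 52.2%. Tlr2 was at 15.01 and 14.1 per 1000 microglial CPM in shAdnp, against 3.50 and 7.22 in GFP (Adnp set), and at 16.0 and 31.9 in shPogz, against 9.31 and 10.9 in GFP (Pogz set). Ly86 was at 42.0 and 40.5 in shAdnp, against 16.7 and 23.1 in GFP (Adnp set), and at 42.6 and 50.2 in shPogz, against 28.2 and 37.0 in GFP (Pogz set). Cd180 was at 4.64 and 5.26 in shAdnp, against 2.56 and 1.99 in GFP (Adnp set), and at 7.27 and 11.5 in shPogz, against 1.39 and 4.75 in GFP (Pogz set). The relative level of these 3 genes was higher in all 4 hairpin libraries than in the controls of their own set. Tlr3, which is also known outside microglia, was at 8.04 and 14.1 per 1000 microglial CPM in shAdnp, against 15.8 and 15.5 in GFP (Adnp set). With 2 libraries a group these ratios were given without a test.

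**Figure D3:**
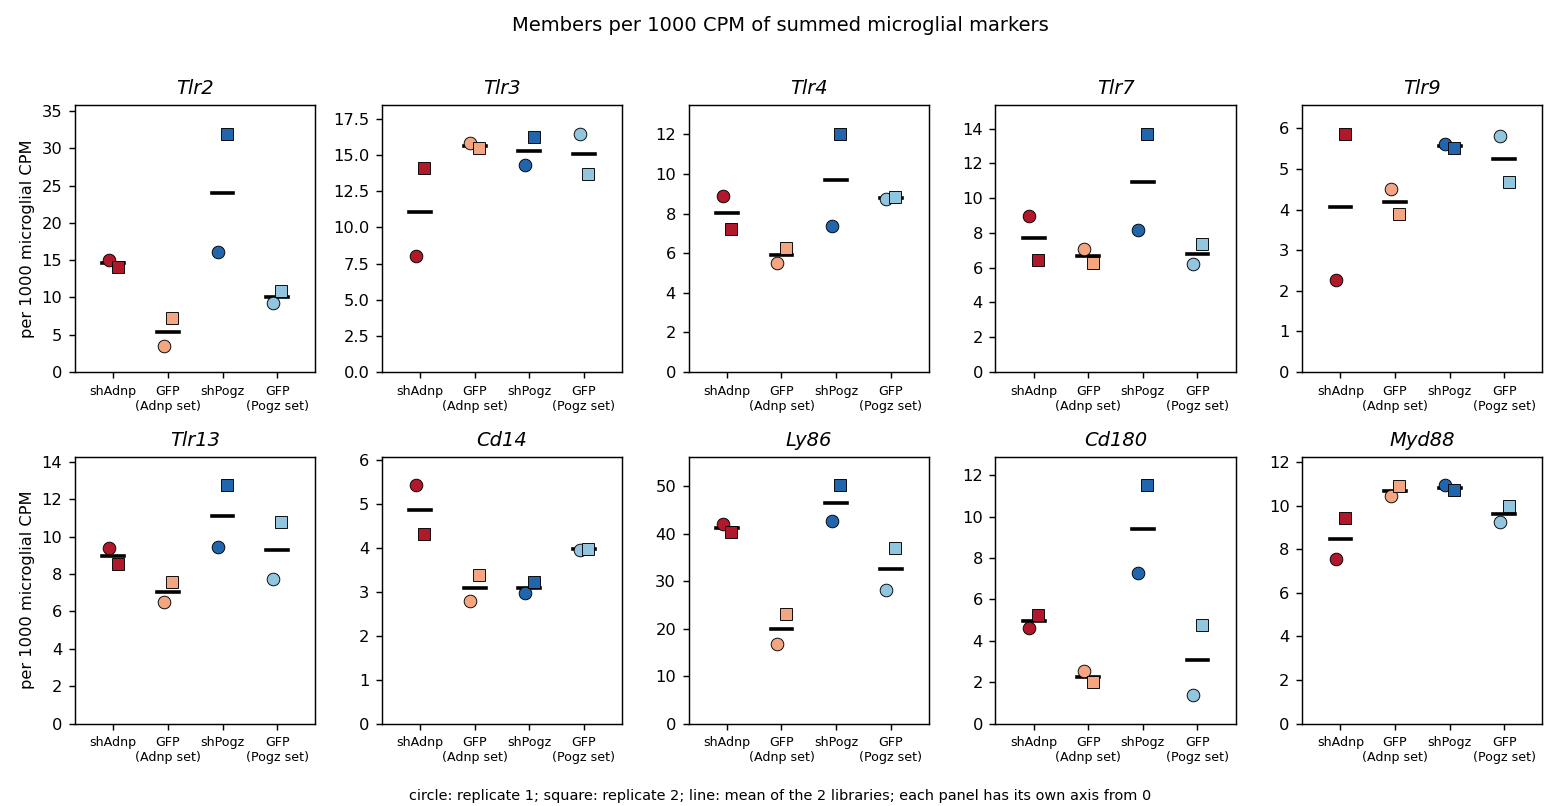
Level of the 10 genes per 1000 CPM of 15 summed microglial markers (y axis, from 0 in each panel), by group (x axis). Circles are replicate 1, squares replicate 2 and lines the mean of the 2 libraries. Tlr2, Ly86 and Cd180 stay above the controls of their own set in all 4 hairpin libraries, while Tlr3 and Myd88 lie below them in shAdnp.

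The other 6 Toll-like receptors of the mouse had the same general direction. Tlr5, Tlr8 and Tlr11 had low levels, at most 1.52 CPM in any library. Tlr1 and Tlr12 were at a mean of 5.69 and 4.52 CPM in shAdnp, beside 4.59 CPM for Tlr9. In shAdnp 5 of the 6 had a positive log2 fold change (all but Tlr5), and in shPogz all 6 did, with medians of 1.57 and 1.05. Of all genes, 47.7% had a positive value in shAdnp and 46.4% in shPogz. An unadjusted p under 0.05 was reached upward by 4 of the 6 in shAdnp (Tlr1, Tlr6, Tlr8 and Tlr12) and by 2 in shPogz (Tlr1 and Tlr6), beside 6.67% and 4.05% of all genes, and 0 of the 6 passed after adjustment over all genes by edgeR. Tlr1, which pairs with Tlr2 to bind lipoproteins, was at 6.68 and 4.70 CPM in shAdnp, against 0.867 and 1.48 CPM in GFP (Adnp set), and at 4.66 and 9.27 CPM in shPogz, against 3.29 and 3.60 CPM in GFP (Pogz set). Tlr6, the other partner of Tlr2, was at 2.49 and 1.60 CPM in shAdnp, against 0.948 and 0.987 CPM in GFP (Adnp set), and at 2.01 and 3.01 CPM in shPogz, against 0.955 and 1.36 CPM in GFP (Pogz set). Neither gene overlapped in either set, and the log2 fold change in shAdnp was 2.27 (SE 0.39) for Tlr1 and 1.08 (SE 0.37) for Tlr6. Tlr11 had no count in GFP (Adnp set) replicate 1 and at most 1.44 CPM elsewhere, and Tlr5 was at 0.417 and 0.144 CPM in shAdnp, against 0.801 and 0.287 CPM in GFP (Adnp set).

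Further along the pathway, factors that deliver ligands or receptors were higher in part. Of 13 measured accessory genes, 6 had an unadjusted p under 0.05 upward in shAdnp (6.67% of all genes) and 3 in shPogz (4.05% of all genes), with medians of 0.46 and 0.40 and 0 past the adjusted p. Unc93b1, which carries the endosomal receptors from the endoplasmic reticulum, was at 63.6 and 52.0 CPM in shAdnp, against 15.3 and 24.9 CPM in GFP (Adnp set), and at 47.7 and 78.2 CPM in shPogz, against 38.4 and 43.9 CPM in GFP (Pogz set). Its log2 fold change was 1.52 (SE 0.30) in shAdnp. The scavenger receptor Cd36, a helper of Tlr2, was at 4.21 and 6.66 CPM in shAdnp, against 1.08 and 1.34 CPM in GFP (Adnp set), and at 5.26 and 14.98 CPM in shPogz, against 1.91 and 3.35 CPM in GFP (Pogz set). Both genes were without overlap in both sets.

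Among the 5 adaptors other than Myd88, 3 had an unadjusted p under 0.05 upward in shAdnp and 1 in shPogz, beside the same shares of all genes, 6.67% and 4.05%. Pik3ap1, which links receptors to phosphoinositide signalling, was at 15.5 and 15.6 CPM in shAdnp, against 3.99 and 6.30 CPM in GFP (Adnp set), and at 15.5 and 38.3 CPM in shPogz, against 9.48 and 12.6 CPM in GFP (Pogz set). Ticam1, the adaptor of Tlr3, was at 6.48 and 6.50 CPM in shAdnp, against 4.59 and 4.63 CPM in GFP (Adnp set). In shPogz it was at 4.84 and 6.34 CPM, against 6.29 and 5.44 CPM in GFP (Pogz set), and overlapped.

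The 20 kinases and ubiquitin factors behaved unlike the receptors, with a median of -0.020 in shAdnp and 0.088 in shPogz. In shAdnp 3 had an unadjusted p under 0.05 upward (Irak4, Ikbke and Btk) and 1 downward (Mapk8), beside 6.67% and 1.69% of all genes, and in shPogz 1 upward (Ikbke), beside 4.05%. Irak4, the kinase that Myd88 recruits, was at 4.33 and 3.38 CPM in shAdnp, against 1.91 and 2.44 CPM in GFP (Adnp set). Btk, a kinase of myeloid cells and B cells, was at 4.99 and 3.29 CPM in shAdnp, against 0.916 and 1.58 CPM in GFP (Adnp set). Mapk8, a stress-activated kinase found in many cell types, was at 196 and 162 CPM in shAdnp, against 221 and 225 CPM in GFP (Adnp set). The difference in medians between these factors and the receptors was described and not tested.

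All 12 transcription factors of the list lay above 0 in both sets, with medians of 0.55 in shAdnp and 0.61 in shPogz. Of all genes, 47.7% lay above 0 in shAdnp and 46.4% in shPogz. An unadjusted p under 0.05 was reached upward by 4 in shAdnp, beside 6.67% of all genes, and by 1 in shPogz, beside 4.05%, a share near the background. Irf8, which microglia need for their identity, was at 31.1 and 33.5 CPM in shAdnp, against 5.12 and 11.03 CPM in GFP (Adnp set), and at 28.6 and 73.3 CPM in shPogz, against 14.4 and 25.6 CPM in GFP (Pogz set). Irf7, which acts below Tlr7 and Tlr9, was at 18.8 and 37.8 CPM in shAdnp, against 3.48 and 17.4 CPM in GFP (Adnp set), and at 54.1 and 159 CPM in shPogz, against 12.1 and 21.6 CPM in GFP (Pogz set). Its spread within groups was wide, with a log2 fold change of 1.44 (SE 0.99) in shAdnp and 2.65 (SE 1.02) in shPogz.

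Of 17 negative regulators, 15 lay above 0 in shAdnp (47.7% of all genes) and 16 in shPogz (46.4%). An unadjusted p under 0.05 was reached upward by 4 of them in shAdnp (6.67% of all genes) and 6 in shPogz (4.05%). Lyn, a kinase that restrains myeloid receptors, was at 36.7 and 29.3 CPM in shAdnp, against 13.9 and 17.0 CPM in GFP (Adnp set), and at 31.4 and 58.8 CPM in shPogz, against 20.3 and 26.3 CPM in GFP (Pogz set). Socs3, a cytokine-induced inhibitor, was at 10.8 and 9.84 CPM in shAdnp, against 3.09 and 4.65 CPM in GFP (Adnp set), and at 9.26 and 22.2 CPM in shPogz, against 5.87 and 8.07 CPM in GFP (Pogz set). Neither gene overlapped in either set.

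Of 21 tested genes that Toll-like receptor signals induce, 5 had an unadjusted p under 0.05 upward in shAdnp (6.67% of all genes) and 12 in shPogz (4.05%), with medians of 1.23 and 2.14 and 0 past the adjusted p by edgeR. Il1a, which encodes interleukin 1 alpha, was at 4.85 and 3.47 CPM in shAdnp, against 1.06 and 1.10 CPM in GFP (Adnp set), and at 2.22 and 4.50 CPM in shPogz, against 1.49 and 2.03 CPM in GFP (Pogz set). Il6, which encodes interleukin 6, was at 0.0348 and 0.0360 CPM in shAdnp, against 0.0327 and 0.127 CPM in GFP (Adnp set), and at 0.327 and 1.73 CPM in shPogz, against 0.141 and 0.171 CPM in GFP (Pogz set). For Il6 the difference of the responses was 3.80 (SE 1.51; edgeR adjusted p = 0.978). With Il6 at most at 0.127 CPM in the Adnp set, this difference rests on few reads. The summed level of the 23 listed genes found in the files was 147 and 195 CPM in shAdnp, against 45.6 and 110 CPM in GFP (Adnp set), and 298 and 938 CPM in shPogz, against 121 and 110 CPM in GFP (Pogz set). Much of the shPogz sum lay in 3 interferon-stimulated genes. Ifit1 was at 82.5 and 293 CPM in shPogz, against 17.8 and 14.6 CPM in GFP (Pogz set), Rsad2 at 54.2 and 203 CPM in shPogz, against 9.41 and 7.22 CPM in GFP (Pogz set), and Cxcl10 at 37.0 and 141 CPM in shPogz, against 7.85 and 8.88 CPM in GFP (Pogz set).

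**Figure D4:**
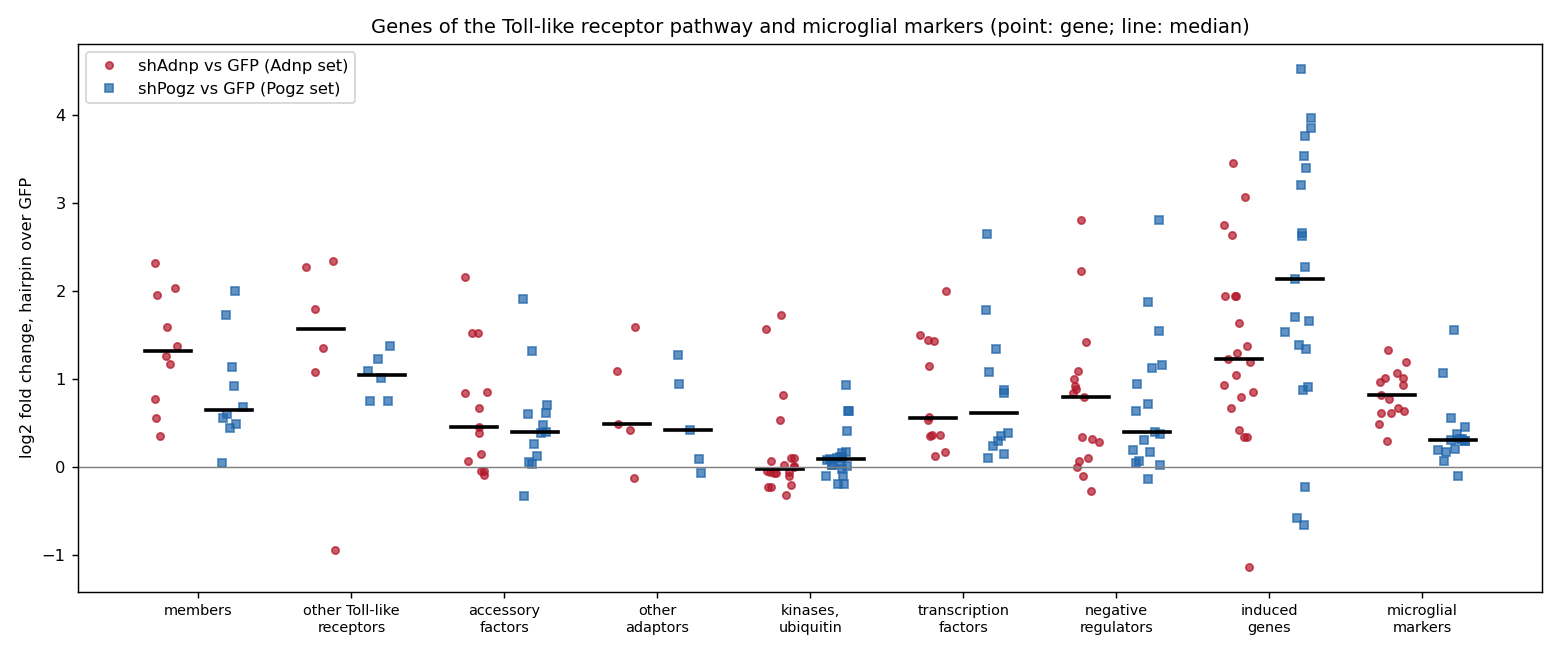
Log2 fold change of hairpin over GFP (y axis) of each tested gene in the lists of the Toll-like receptor pathway and of microglial markers (x axis), in shAdnp (circles) and shPogz (squares), with lines at the medians. The 10 genes described here are labelled members, with medians of 1.32 in shAdnp and 0.64 in shPogz, and the medians of the kinases and ubiquitin factors are -0.020 in shAdnp and 0.088 in shPogz.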

How the data were processed

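RNA sequencing libraries from prefrontal cortex were analysed from the raw read counts per gene symbol that the authors deposited. Per the submitters' processing notes, STAR, featureCounts and DESeq2 were used with build mm10, whereas Cutadapt and TopHat2 with RefSeq mRNAs appear in the labels' protocols, which describe stranded, ribosomal RNA-depleted libraries from biological duplicates. The series design mentions 3 hairpin and 2 control mice, and 2 libraries per group were analysed here. The column of shPogz replicate 2 carries the number 3, per the file headers.

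Identifiers turned into dates (25, with 0.306% to 0.337% of counts) and 2 blank ones were left out. Genes were kept by filterByExpr (minimum count 10), scaled by TMM and fitted in R 4.3.3 with edgeR 4.0.16 (quasi-likelihood, robust) over all 8 libraries, with 4 residual degrees of freedom. The Benjamini-Hochberg method was applied over all tested genes, with a threshold of 0.05. No libraries were alike within sampling noise (chi-square over its degrees of freedom 15.0 to 394 between pairs). Lengths are those of the longest GENCODE transcript paired with RefSeq. Alternatives included DESeq2 1.42.0 and limma-voom 3.58.1.

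The members and gene lists were chosen with earlier results of these data known. The genes named beyond the 10 are the other Toll-like receptors, up to 3 of each list with the smallest p per comparison, and the 3 most alike to each member. Ly96, Elane, Ifit1, Cxcl10, Cd163, Lyve1 and the genes at 0 were named after their values were seen, and only a part of the genes the rule gives is named, some being not reported here.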

Additional observations from a re-analysis of the deposited data

Results flagged for a closer look

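The ratio of Cd14 to the summed microglial markers differed in opposite directions in the sets. Both shAdnp libraries lay above their controls (log2 difference of the ratio 0.66) and both shPogz libraries below theirs (-0.36). The level of Cd14 itself differed by only 0.048 on the log2 scale in shPogz, where its controls lay between the hairpin libraries. The lower ratio there therefore arises from the division by the marker sum. The same ratio of Myd88 was lower in shAdnp (-0.34) and higher in shPogz (0.17). The level of Myd88 itself differed by 0.56 on the log2 scale in both sets, so its opposite signs arise from the division by a marker sum that differed by 0.90 in shAdnp and 0.38 in shPogz. For these ratios the difference between the sets was not tested.

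Of 104 tested pathway genes, the receptors included, 4 (3.85%) had both hairpin libraries below the controls in shAdnp and above them in shPogz, beside 2.56% of all tested genes. That share is near the background. The reverse pattern was found in 0 of the 104, beside 2.33% of all tested genes. For the 4 genes the difference of the responses (shPogz minus shAdnp, log2) was 0.18 (the kinase gene Map3k7), 0.26 (Tab3), 0.34 (the NF-kB kinase gene Ikbkb) and 0.15 (the deubiquitinase gene Cyld). None of these differences passed after adjustment over all genes by edgeR.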

How the results depend on the processing

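Each result was recomputed with other scalings, low-count filters, tools, dispersion settings and sample choices. Genes called, 0 in each comparison, became 420 in shAdnp, 100 in shPogz, 2 for the difference of the responses and 711 for the average effect with DESeq2, and 175, 31, 0 and 405 with the replicate number as a block within each set. The numbers did not pair the libraries (correlation of same-numbered deviations -0.02 in the Adnp set and 0.07 in the Pogz set). Under the block Ly86 and Cd180 passed in shAdnp (adjusted p = 0.0495 and 0.0185), Cd180 in shPogz (0.00941), and Tlr7 and Cd180 on average. Without shPogz replicate 1 the average effect of 7 of the 10 passed by edgeR (Tlr2, Tlr4, Tlr7, Tlr13, Ly86, Cd180 and Myd88), against 0 with all libraries. With a library left out, genes called ranged from 0 to 8 in shAdnp, 0 to 153 in shPogz, 0 to 4 for the difference and 0 to 556 on average, the highest for shAdnp and the difference coming without shAdnp replicate 1 and the highest for shPogz and the average without shPogz replicate 1. The median of the 10 genes ranged from 1.06 to 1.65 in shAdnp, 0.24 to 1.14 in shPogz, -0.98 to 0.0076 for the difference and 0.79 to 1.25 on average. All 42 medians under the other settings differed from the main value by less than the pooled within-group standard deviation of a score per library, the median log2 CPM of the 10 genes. That bound is loose, as the score was 3.02 and 4.06 in the 2 shPogz libraries.

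Of single genes, the sign turned mostly in the difference of the responses. For Tlr7 it was 0.073 with total counts and 0.0054 with a minimum of 1 CPM in 2 libraries. For Cd180 it was 0.058 with total counts, 0.0087 with DESeq2 and 0.13 with the block. For Myd88 it was -0.055 with limma-voom and -0.014 with the block. Cd14 in shPogz was -0.0091 with limma-voom. With a library left out the difference ranged from -1.56 to 0.014 for Tlr2, -0.32 to 0.46 for Tlr3, -0.82 to 0.52 for Tlr7, -0.67 to 0.25 for Tlr9, -0.76 to 1.24 for Cd180 and -0.28 to 0.28 for Myd88. In shPogz, Tlr4 ranged from -0.15 to 1.14 and Cd14 from -0.32 to 0.38. In shAdnp and on average all 10 genes stayed above 0 in every setting run. A library left out leaves a group of 1, assumed to vary like the other groups. With 2 libraries a group, the p-values depend on pooling the spread over groups and genes, and the causes of these dependences were not tested.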
